A study of Canis lupus familiaris with 17 samples.

Results

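CD4-expressing mature neutrophils were picked out of single-cell RNA sequencing of blood leukocytes from 7 healthy dogs and 10 dogs with osteosarcoma (OS), a malignant bone tumor. The cells were chosen by their own transcript counts. A barcode, which tags the RNA of 1 captured cell, first had to hold between 200 and 4500 genes, between 500 and 20000 unique molecular identifiers (UMIs, each marking 1 captured RNA molecule) and less than 10% mitochondrial UMIs. It then had to hold at least 3 UMIs of S100A12, at least 2 of CD4, at most 1 of DLA-DRA, at most 1 of IL18, and 0 of CAMP, CD3E and MS4A1. Of 93013 deposited barcodes, 84361 passed the first limits, and 3657 of these, or 4.34%, met the rule. Healthy dog 7 held 1268 of the 3657 neutrophils, or 34.7%, which was more than any other dog but not the majority. Without healthy dog 7 there were 2389 neutrophils, 3.00% of the cells that passed.

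All dogs were client-owned, of the wild type genotype in the labels, of varying breeds, most of them named breeds, and of both sexes. The dogs with OS had a primary tumor and had not been treated for it, and the healthy dogs served as untreated controls. Age, sex and breed were listed by the study but were not in the labels and were not modelled. Their part in any difference between the groups was not tested. The study proposes that age may have confounded its own comparison of the groups. Blood was drawn into EDTA and spun over a Ficoll density gradient, red cells were lysed, and 1 library per dog was made with the 10x Genomics 3′ v3.1 chemistry. The labels call the material PBMC, so the neutrophils described are those that stayed in the collected layer of the gradient, and their share of the captured cells is not their share of whole blood.

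Neutrophils are short-lived granulocytes that leave the bone marrow as mature cells, carry preformed antimicrobial proteins in granules and produce reactive oxygen through the NADPH oxidase. Granule proteins such as cathelicidin (CAMP) and lactoferrin (LTF) are transcribed mainly in the marrow precursors, so their messages mark immature cells, whereas S100A8 and S100A12, calcium-binding alarmins, stay abundant in mature neutrophils. CD4 is best known as the co-receptor that helps T cells bind MHC class II, and the dog is known for carrying it on neutrophils as well.

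Depth set the precision of what follows. The libraries held 1332 to 7748 barcodes and 7740230 to 56510134 UMIs, with OS dog 3 the smallest. The neutrophils held few UMIs per cell: the median over all of them was 1741, and the medians by dog ran from 1394 to 2153, against 4291 to 6790 in the other cells of the same dogs. Median UMIs per neutrophil were 1733 ± 80.3 over the healthy dogs (SD, n = 7) and 1740.5 ± 247 over the dogs with OS (SD, n = 10), and p was 0.887 in an exact Wilcoxon test (two-sided, and 0.713 without healthy dog 7). Mitochondrial transcripts made up 0.102% to 0.641% of the neutrophils' UMIs by dog and 2.43% to 3.79% of the UMIs of the other cells. Healthy dog 7 and OS dog 6 stood apart, the first by its number of neutrophils and the second by the content of its 72 neutrophils. Of these 72, 17 (23.6%) held more than 5000 UMIs, against 0% to 5.80% in the other dogs. Of all barcodes, 2254 (2.42%) occurred in 2 or more libraries, and 90 of the neutrophils (2.46%) had such a barcode.

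The CD4 condition removed few cells. Among the 3958 cells that met every other condition, 3657 (92.4%) held 2 or more CD4 UMIs, 192 held 1 and 109 held 0. The share with 2 or more ran from 90.8% in healthy dog 1 to 95.2% in healthy dog 7, and in dogs with OS from 78.6% of 201 cells in OS dog 2 to 46 of 46 in OS dog 3 (exact 95% binomial interval 92.3% to 100%). The ranges of the groups overlapped. At the limits themselves, 251 cells lay just inside the CD4 condition with 2 UMIs. For S100A12, 66 cells had 3 UMIs and 53 had 2. For IL18, 319 cells had 1 UMI and 225 had 2. For DLA-DRA, an MHC class II chain, 434 cells had 1 UMI and 57 had 2. For CAMP, 24 cells that met every other condition had 1 UMI.

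CD4 was abundant in the neutrophils relative to T cells. The neutrophils held a median of 7 CD4 UMIs (quartiles 4 and 10, highest 33) beside a median of 29 S100A12 UMIs (quartiles 14 and 50). In 13863 cells with CD3E and CD4 but no S100A12, here called CD4 T-like cells, the median was 2 CD4 UMIs although these cells held a median of 6064 UMIs. Levels are given as CPM, the UMIs of a gene per 1000000 UMIs summed over a set of cells, by dog or, where said, pooled over dogs. CD4 stood at 1990 to 5432 CPM in the neutrophils and at 238 to 431 in the CD4 T-like cells of the same dogs. The ratio within a dog was lowest in OS dog 6, at 6.11, and highest in OS dog 8, at 14.5, and it was 13.1 in healthy dog 7. Both sets were chosen by CD4 counts, so the ratio is a description of them. The neutrophils did not carry the T-cell partners of CD4 at such levels. CD3D, a chain of the T-cell receptor complex, was at 5.24 CPM in the pooled neutrophils and 420 in the CD4 T-like cells. LCK, the kinase bound by CD4 in T cells, was at 1.56 and 85.0. GATA3, a T-cell transcription factor, was at 1.70 and 100.3, while ZBTB7B, the factor that directs CD4 T-cell fate, was at 6.80 and 5.06. CD3D, LCK, GATA3 and ZBTB7B were named after their values were seen. IL16, a secreted ligand of CD4, was at 268 CPM in the neutrophils and 157 in the CD4 T-like cells.

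**Figure D1:**
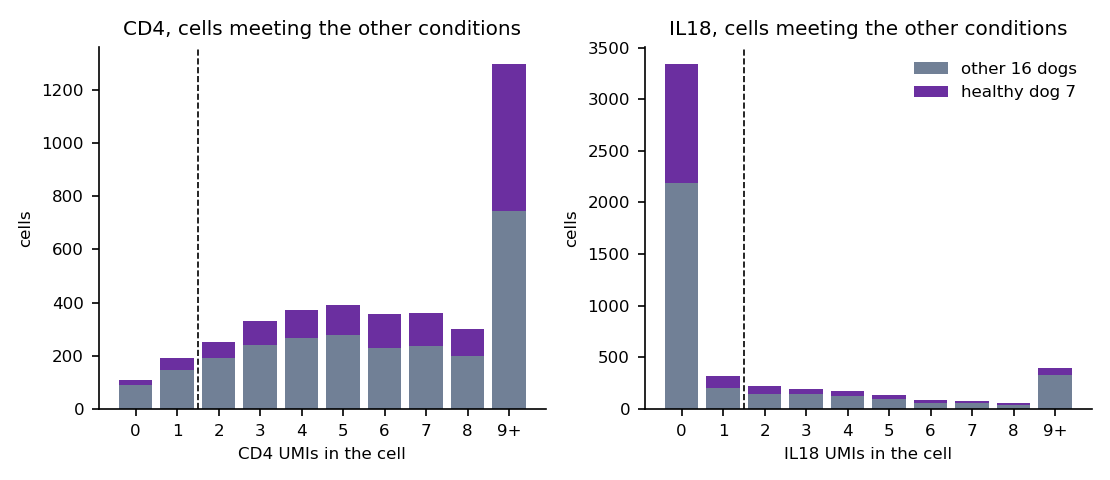
Number of cells by CD4 UMIs (left) and by IL18 UMIs (right) among the cells that met every other condition of the rule, with healthy dog 7 shown apart from the other 16 dogs. Of the 3958 cells in the CD4 panel, 109 held no CD4 UMI and 192 held 1, and in the IL18 panel 319 cells lay just inside the limit with 1 UMI and 225 just outside with 2.

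Free RNA, which droplets take up from burst cells, was gauged in cell types that should lack these genes. Of 41855 cells with 2 or more CD3E UMIs, 430 (1.03%) also held 3 or more S100A12 UMIs, and the share by dog ran from 0% to 2.95%, highest in healthy dog 7. At 1 or more S100A12 UMIs the share ran from 0.963% to 19.1%, highest in OS dog 2, and was 10.1% in healthy dog 7. Of 2108 B-like cells with 2 or more MS4A1 UMIs, 5 (0.237%) held 2 or more CD4 UMIs and 2 (0.0949%) met both the S100A12 and the CD4 minimum.

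The label was checked against a list of 31 neutrophil genes that left out S100A12 and CD4, of which 25 were in the annotation used for counting. The list summed to 58028 CPM in the pooled neutrophils, against 2723 in CD4 T-like cells and 1364 in B-like cells. As a sum it did not separate them from the sets nearest to them. It was at 110491 in cells with CAMP, which were taken at any CD4 count. In cells that met the rule but for 2 or more IL18 UMIs it was at 45118. The sum in cells with CAMP was led by S100A8, at 106297 there and 26678 in the neutrophils. SERPINA1 and NAMPT were higher in the neutrophils, at 4495 and 3154 against 492 and 218. FPR2 and PROK2 were lower in the neutrophils, at 15.7 and 2.83 against 139 and 33.6. By dog the list sum in the neutrophils ran from 33948 in OS dog 6 to 73743 in healthy dog 1. S100A8 led with 14751 to 41299 CPM, followed by SERPINA1, a protease inhibitor, at 2524 to 5285. NAMPT, an enzyme of NAD synthesis, was at 1899 to 5146. SGK1, a kinase given as a marker of these cells, was at 685 to 3645, and CSF3R, the receptor for granulocyte colony-stimulating factor, was at 158 to 355.5. CXCR2, the chemokine receptor that mature neutrophils carry, was low at 4.13 to 51.8, and ALPL had 0 UMIs in every dog's neutrophils. CSF3R, CXCR2, ALPL, FPR2 and PROK2 were named after their values were seen.

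Genes of neutrophil function were measured as well. Of the NADPH oxidase genes, CYBA, a membrane subunit, was at 916 to 1923 CPM by dog. The cytosolic subunit NCF4 was at 239.5 to 579.6. Among chemotaxis and adhesion receptors, C5AR1, the receptor for complement fragment C5a, was at 714 to 1296, and ITGAM, the integrin CD11b, was at 442 to 902. CXCR4, a chemokine receptor that rises on ageing neutrophils, varied more, from 169 in OS dog 9 to 1601 in healthy dog 1.

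Markers of other cell types were measured in the neutrophils too. The T-cell list summed to 15.7 to 204 CPM by dog, against 4864 in CD4 T-like cells. The platelet list summed to at most 300.3. The B-cell list summed to 147 to 1457, most of it from CD79A, which was also at 8574 in CD4 T-like cells. CD79B was at 0 in every dog's neutrophils, but was low in B-like cells as well, at 26.0. BANK1 was at 0 to 516 by dog, highest in OS dog 6, against 922.5 in B-like cells and 16.4 in CD4 T-like cells. The eosinophil and basophil list summed to 962 to 2756, nearly all of it from PADI3, and IL5RA, which defines eosinophils, was at 6.99 to 99.5. The monocyte list ran from 855 in healthy dog 5 to 7332 in OS dog 6, against 9665 pooled in the cells that met the rule but held 2 or more DLA-DRA UMIs, and was led by VCAN and LRMDA. Of the monocyte markers, CCR2 had 2 UMIs in all neutrophils together and MS4A7 had 10. Both were low in the pooled cells with 2 or more DLA-DRA UMIs as well, at 5.71 and 18.9 CPM. VCAN and LRMDA were at 792 and 350.5 in the pooled neutrophils, against 2870 and 2088 in those cells. IL5RA, CCR2, MS4A7 and CD79B were named after their values were seen. With only the neutrophils of at most 5000 UMIs, the neutrophil list in OS dog 6 summed to 49899 and the monocyte list to 4448, still the highest monocyte sum of any dog.

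**Figure D2:**
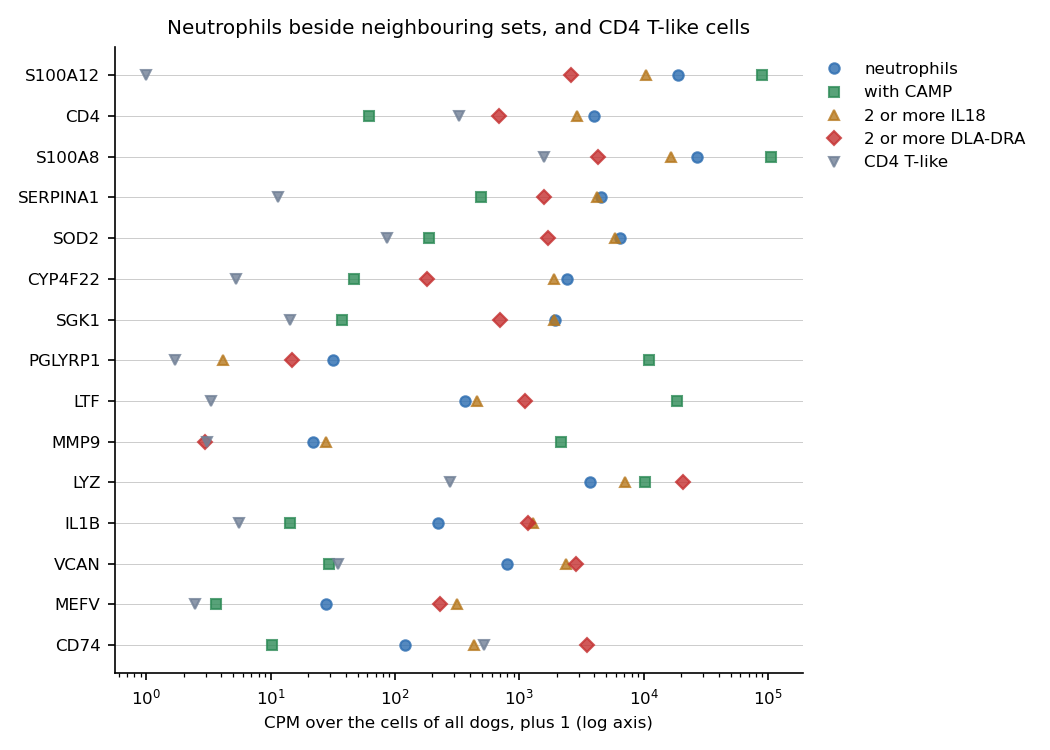
Level in CPM (log axis) of the rule's genes and of marker genes in the neutrophils, in the sets of cells next to them and in CD4 T-like cells, pooled over dogs, each plus 1. SGK1 and SOD2 are at 1920.3 and 6407 in the neutrophils and at 36.5 and 187 in the cells with CAMP, where PGLYRP1 is at 11087 against 30.7.

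Neighbouring sets of cells, which kept the rest of the rule but changed 1 of its conditions, were set beside the neutrophils. The set with CAMP was also taken at any CD4 count. Each such set was compared within dogs having at least 10 of its cells, for genes at 50 CPM or more in the higher set, with a log2 ratio at a pseudocount of 50. The sets were cut from the same counts, so the ratios are a description and carry no test.

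Cells with CAMP numbered 607, of which 572 were in the 8 dogs compared. Only 33 of the 607 held 2 or more CD4 UMIs and 574 held 0 or 1, so this set differed from the neutrophils in CD4 as well as CAMP, and its pooled CD4 level was 61.2 CPM against 4006. Genes lie on the same side in 8 dogs more easily than in the 17 dogs of the next sets, so the counts are not set against each other. Of 3274 genes, 1310 (40%) were higher and 482 (14.7%) lower in the neutrophils in all 8 dogs. Highest in the neutrophils were CYP4F22, a fatty acid hydroxylase of the cytochrome P450 family, with a median log2 ratio of 4.94, and SOD2, the mitochondrial superoxide dismutase, with 4.93. SGK1 followed with 4.75. SLC7A11, the cystine and glutamate exchanger, and ISG20, an exonuclease, each had 4.26. The genes lowest in the neutrophils were ENSCAFG00000032259, which carries no symbol in the files, at -7.44, the granule protein genes PGLYRP1 at -6.96, LTF at -5.21 and MMP9 at -5.17, and CRISP2 at -5.01. Pooled over dogs, LTF was at 361 CPM in the neutrophils and 18560.2 in the cells with CAMP, and MMP9 was at 21.0 and 2180.0. ELANE and OLFM4 were at 0 in the neutrophils and MPO, the azurophil granule peroxidase, had 2 UMIs in all of them together, 3 genes named after their values were seen. In the pooled cells with CAMP these genes were low as well, ELANE at 12.8 CPM, OLFM4 at 0 and MPO at 4.06. S100A8 did not follow this order, with 26678 in the neutrophils and 106297 in the cells with CAMP. The cells with CAMP held a median of 5456 UMIs.

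Cells with 2 or more IL18 UMIs numbered 1352 in 17 dogs. Of 3307 genes, 58 (1.75%) were higher and 92 (2.78%) lower in the neutrophils in every dog. The gene ENSCAFG00000030793 led in the neutrophils with a median log2 ratio of 1.58. It was followed by ANGPT2, a vessel growth factor, with 1.18, ENSCAFG00000011630 with 1.13, IL1R2, the decoy receptor for interleukin 1, with 0.97, and ZAR1L with 0.86. Lower in the neutrophils were TCF7L2, a Wnt transcription factor, at -2.40, NEBL at -2.21, MEFV, the inflammasome protein pyrin, at -2.12, IL1B at -1.97 and HAVCR1 at -1.89. SGK1 did not separate these sets, at 1920.3 and 1915 CPM. The share of cells with 2 or more IL18 UMIs, among those meeting every other condition, ran from 12.8% in OS dog 4 to 55.0% in OS dog 1 and was 21.2% in healthy dog 7.

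Cells with 2 or more DLA-DRA UMIs numbered 842 in 17 dogs. Of 3763 genes, 562 (14.9%) were higher and 737 (19.6%) lower in the neutrophils in every dog. ENSCAFG00000030793 was highest in the neutrophils at 4.97, then CYP4F22 at 3.46, ADGRE3, an adhesion receptor of myeloid cells, and PON3, a lactonase, both at 3.32, and IL1R2 at 3.23. The genes lower in the neutrophils included CD74, the MHC class II invariant chain, at -4.87, fibronectin (FN1) at -3.42, the protease CTSS at -3.13 and BPI at -3.10. These cells held a median of 7626 UMIs, and their neutrophil list summed to 17115 CPM. Their share of the cells meeting every other condition was lowest in healthy dog 7, at 4.45%, and highest in OS dog 5, at 49.0%.

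Of the 109 cells with no CD4 UMI, 55 were in the 3 dogs compared, and of the 192 with 1 CD4 UMI, 130 were in the 6 dogs compared. Against the cells with no CD4 UMI, the neutrophils had more SGK1 (median log2 ratio 2.14), FOS (2.10), SNX29, GPAT3 and ADGRE3, and less PGLYRP1 (-5.42), MMP9 (-3.26), FADS1 (-2.93), LTF (-2.89) and ENSCAFG00000032259. Pooled, the cells with no CD4 UMI held LTF at 4287 CPM and PGLYRP1 at 5970, between the neutrophils and the cells with CAMP, although they too held no CAMP UMI. Against the cells with 1 CD4 UMI, 101 of 3217 genes were higher and 59 lower in the neutrophils in all 6 dogs. Genes lie on the same side in 6 dogs more easily than in 17. The median ratios of these genes were smaller, from 1.59 for CUL3, a ubiquitin ligase scaffold, down to -0.80 for PPP1R15A, a stress-response gene. Some rested on levels near 0, such as ASB3, with a median of 0 CPM in the cells with 1 CD4 UMI. Pooled, CUL3 was at 173 CPM in the neutrophils and 93.8 in the cells with 1 CD4 UMI. In those cells SGK1 was at 1750 CPM and SOD2 at 6332, close to the neutrophils' levels. Granule genes were not close, pooled. PGLYRP1 was at 739 in the cells with 1 CD4 UMI and 30.7 in the neutrophils, LTF at 715 and 361, and MMP9 at 147 and 21.0.

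The first comparison between dogs asked whether the neutrophils took a different share of the captured cells in OS. In healthy dogs 1 to 6 they made up 4.10%, 2.50%, 3.21%, 1.07%, 4.40% and 2.40% of the cells that passed, and in healthy dog 7 they made up 26.6% (exact 95% binomial interval 25.4% to 27.9%, counting error only). In the 10 dogs with OS the lowest share was 1.38%, the median 2.52% and the highest 8.31%, in OS dog 8 (7.49% to 9.19%). Healthy dog 7 lay above every dog with OS, and the other 6 healthy dogs lay inside the range of the dogs with OS apart from healthy dog 4, which was below it. The mean over healthy dogs was 6.33% ± 9.03 (SD, n = 7) and over dogs with OS 3.27% ± 1.97 (SD, n = 10), and without healthy dog 7 the healthy mean was 2.95% ± 1.22 (SD, n = 6). The medians differed by -0.70 percentage points, OS minus healthy (p = 0.475, exact Wilcoxon test, two-sided), and by -0.34 without healthy dog 7 (p = 0.793, exact). The smallest p this design allows is 0.000103.

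The direction of this difference depended on the denominator. As a share of cells with no CD3E and no MS4A1 UMI, the neutrophils had a median of 6.66% in healthy dogs and 8.89% in dogs with OS, a difference of 2.23 percentage points the other way (exact p = 0.601). On that scale healthy dog 7 was at 45.6% and OS dog 8 at 18.3%. Both differences were smaller than the spread between dogs.

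**Figure D3:**
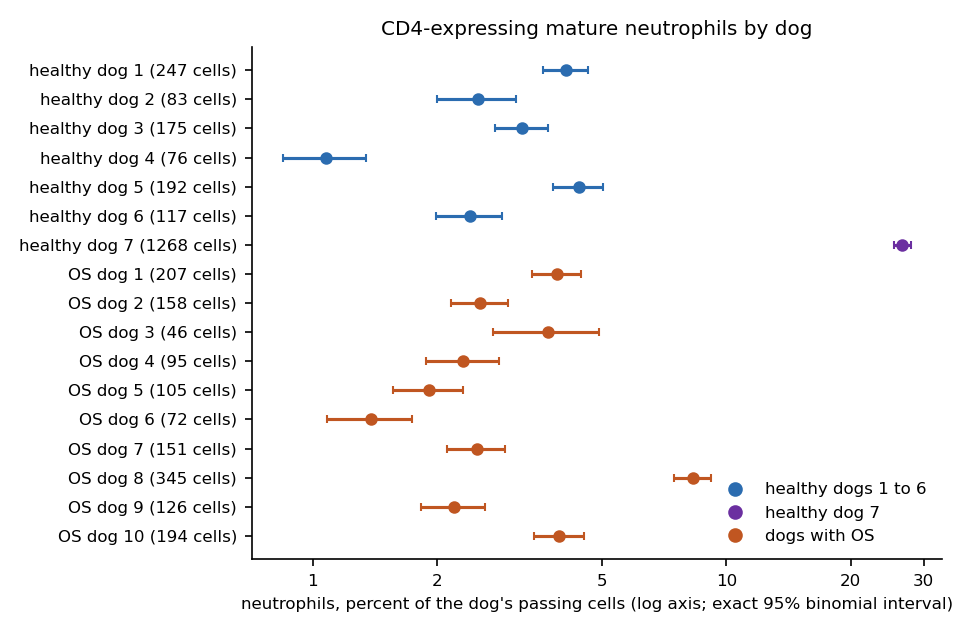
Share of passing cells that were CD4-expressing mature neutrophils in each dog (percent, log axis), with exact 95% binomial intervals for counting error. Healthy dog 7 is at 26.6%, OS dog 8 at 8.31% and the other 15 dogs lie between 1.07% and 4.40%.

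Gene expression in the neutrophils was then compared between OS and healthy dogs, with the UMIs of each dog's neutrophils summed to 1 profile. The sums ran from 70320 UMIs in OS dog 3 to 2408906 in healthy dog 7. Of 9574 genes tested, 0 (0%) met both limits set for a call in edgeR's quasi-likelihood test, an adjusted p under 0.01 and a log2 fold change beyond 0.58 either way, and 458 (4.78%) had an unadjusted p below 0.05, 304 (3.18%) higher and 154 (1.61%) lower in OS. DESeq2 likewise called 0, with 345 genes at an unadjusted p below 0.05. Without healthy dog 7, edgeR called 0 of 8945 genes, and 432 (4.83%) had an unadjusted p below 0.05, 304 (3.4%) higher and 128 (1.43%) lower. The median log2 fold change over all genes was 0.01, and 0.03 without healthy dog 7.

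The rule's own genes and the leading markers differed by less than the spread between dogs. CD4 was at 3572, 4076 and 5432 CPM (lowest, median and highest) in healthy dogs and at 1990, 3723 and 4879 in dogs with OS, with a log2 fold change of -0.21 ± 0.18 (SE, adjusted p = 1.00 in edgeR). S100A12 was at 17891, 21096 and 26764 in healthy dogs and at 11379, 15383 and 29781 in dogs with OS, with a log2 fold change of -0.38 ± 0.22. SGK1 was at 685, 1772 and 2158 against 780.3, 1948 and 3645. The groups overlapped for all 3 genes, of which CD4 and S100A12 also chose the cells.

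The 5 genes with the smallest p did not pass the adjustment, and most of them rested on few UMIs or 1 dog. ENSCAFG00000031806 had the smallest, with a log2 fold change of -5.78 ± 1.12 (SE, adjusted p = 0.195 in edgeR). Its level came from healthy dog 5, where it was at 18276 CPM from 6282 UMIs, while the other 16 dogs were at 0 to 361. In B-like cells this gene was at 11204, and with only the neutrophils of at most 5000 UMIs, which leaves out 3 cells of healthy dog 5, its log2 fold change was 0.15. SMAD1, a mediator of bone morphogenetic protein signals, had a log2 fold change of 3.21 ± 0.71 with at most 9 UMIs in any dog. NECTIN1, an adhesion molecule, had no UMI in any healthy dog and 1 to 5 UMIs in 6 of the 10 dogs with OS. AVIL, an actin-binding protein, had at most 5 UMIs in any dog.

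CTSH, the lysosomal protease cathepsin H, was the best measured of these 5. It was at 53.5, 83.9 and 96.0 CPM (lowest, median and highest) in healthy dogs and at 81.0, 145 and 345 in dogs with OS, where 8 of the 10 dogs lay above the highest healthy dog. The log2 fold change was 1.11 ± 0.27 (SE, adjusted p = 0.572 in edgeR) and 1.08 without healthy dog 7.

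Gene lists by function were read against the background of 3.18% of all genes at an unadjusted p below 0.05 and higher in OS. No gene of any of the 15 lists was called. The lists were chosen with earlier results of these dogs known, and a count of members is a description of the list.

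Inflammatory cytokines and chemokines leaned toward OS. Of 14 genes 12 were tested, 7 had an unadjusted p below 0.05 and all 7 were higher in OS, with a list median log2 fold change of 1.34, and without healthy dog 7 the count was 5 and the median 1.34. With only the neutrophils of at most 5000 UMIs the count was 4 and the median 0.63. Of the 7 genes, CCL3, TNFSF13B, IL1A and CCL4 rested on 75, 72, 134 and 210 UMIs in all neutrophils together, and were named after their values were seen. All 7 were higher, pooled, in the cells with 2 or more IL18 or DLA-DRA UMIs. There IL1B was at 1292 and 1177 CPM against 221 in the neutrophils, and NFKBIA at 1029 and 892 against 334. The part of such cells' RNA in the difference was not tested. The list's summed level was at 1641, 2825 and 6213 CPM (lowest, median and highest) in healthy dogs and at 2093, 3448 and 15410 in dogs with OS. The ranges overlapped in part, with OS dogs 2 and 3 above every healthy dog and healthy dog 6 below every dog with OS. IL1B, the secreted form of interleukin 1, was at 13.4, 84.4 and 308 in healthy dogs and at 48.7, 363 and 673 in dogs with OS, which is a log2 fold change of 1.60 ± 0.53 (SE, adjusted p = 0.777 in edgeR). NFKBIA, the inhibitor that NF-kappaB induces, had a log2 fold change of 1.14 ± 0.37 and TNFAIP3, another brake on the same pathway, 2.21 ± 0.68. CXCL8, the neutrophil-attracting chemokine, was the most abundant gene of the list and lay below the list median, with a log2 fold change of 0.57 ± 0.48, from 807, 1874 and 5131 in healthy dogs and 1099, 2281 and 12898 in dogs with OS. Its 2 highest dogs were OS dog 3 and OS dog 2, at 12898 and 12157.

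Genes of the monocyte list leaned the same way. Of 17 genes 16 were tested and 7 had an unadjusted p below 0.05, all higher in OS, with a list median of 1.07. Without healthy dog 7 the count was 5 and the median 0.76, and with the neutrophils of at most 5000 UMIs the count was 5 of 15 and the median 0.68. VCAN, the matrix proteoglycan versican, was at 343, 500.2 and 814 CPM in healthy dogs and at 479.8, 938 and 3129 in dogs with OS, which is a log2 fold change of 1.34 ± 0.33 (SE, adjusted p = 0.572 in edgeR). Its highest dogs were OS dogs 6, 9 and 3. KCNJ2, a potassium channel, had a log2 fold change of 1.03 ± 0.31. The rest of the 7 genes were MS4A7, NRG1, MEFV, CD83 and FN1. MS4A7, NRG1, MEFV and CD83 rested on 10, 130, 189 and 348 UMIs in all neutrophils together. FN1 rested on 482, of which 229 were in OS dog 6. NRG1 and CD83 were named after their values were seen. The summed monocyte list was at 855, 1175 and 2624 in healthy dogs and at 941, 2035 and 7332 in dogs with OS. The part of monocyte RNA in this difference was not tested. BCL2A1, a survival gene of the neutrophil list, was at 76.9, 263 and 1135 in healthy dogs, the highest being healthy dog 7, and at 189, 850.0 and 3029 in dogs with OS, which is a log2 fold change of 1.68 ± 0.52 with all dogs (adjusted p = 0.738 in edgeR) and 2.42 without healthy dog 7 (adjusted p = 0.345).

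**Figure D4:**
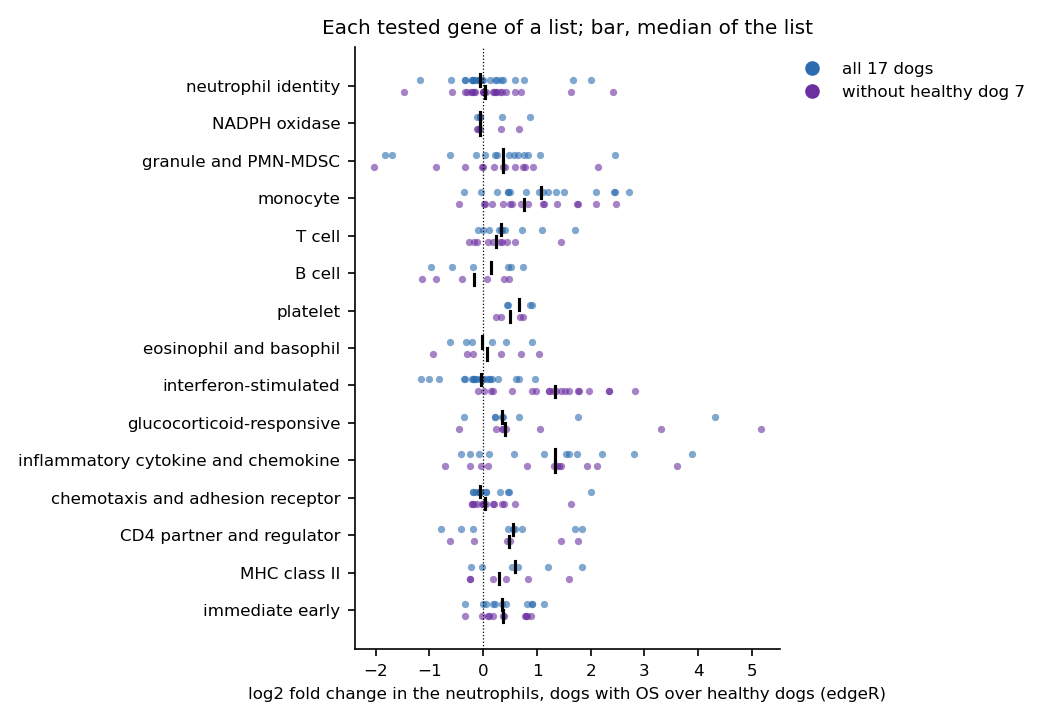
Log2 fold change of each tested gene in the neutrophils, OS against healthy dogs, by gene list, with the list medians, with all dogs and without healthy dog 7. The median of the interferon-stimulated list moves from -0.04 to 1.33 when healthy dog 7 is left out, while that of the inflammatory list stays at 1.34.

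The identity lists leaned less. The neutrophil list had a median log2 fold change of -0.06 over 24 genes, with 3 at an unadjusted p below 0.05, BCL2A1, FPR2 and TLR4, all higher in OS. The granule list had a median of 0.37 over 14 genes, 3 higher and 1 lower at that p, and 1 higher and 1 lower both without healthy dog 7 and with the neutrophils of at most 5000 UMIs. The lower one was CRISP2, with a log2 fold change of -1.82 ± 0.52 (SE, adjusted p = 0.696 in edgeR), from 13.7 to 203 CPM in healthy dogs and 3.85 to 53.7 in dogs with OS. The higher ones were PGLYRP1, FADS1 and BPI. PGLYRP1 was at 345 CPM in OS dog 10, which held 132 of its 217 UMIs, and at 0 to 97.2 in the other 16 dogs. BPI rested on 191 UMIs in all neutrophils together, 40 of them in OS dog 6. The list's sum was led by lysozyme (LYZ), which was at 19842 in OS dog 6 and at 1223 to 8694 in the other 16 dogs. The log2 fold change of LYZ was 0.25 with all dogs and -0.33 without OS dog 6. The chemotaxis list had 2 of 14 genes at that p, FPR2 and PTAFR, the NADPH oxidase list 1 of 5, CYBB, and the immediate early list 2 of 11, IER3 and JUNB, all higher in OS. The MHC class II list had 1 of 6, CD74, and the list of CD4 partners and regulators had 3 of 9, LEF1, TOX and RUNX1. The T-cell list had 1 of 10, again LEF1, and the B-cell, platelet and eosinophil lists had 0 of 6, 4 and 6. Without healthy dog 7 the counts were 0 for the CD4 partner, NADPH oxidase and T-cell lists, 1 for the immediate early list (IER3) and the eosinophil list (IL5RA, higher in OS), and as before for the neutrophil, chemotaxis, MHC class II, B-cell and platelet lists. FPR2, TLR4, PTAFR, CYBB, IER3, JUNB, LEF1 and TOX were named after their values were seen.

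Interferon-stimulated genes set healthy dog 7 apart from the other healthy dogs. These genes are switched on by type I and type II interferons and include OAS1, which senses double-stranded RNA, RSAD2, which blocks viral replication, and ISG15, a ubiquitin-like modifier. Healthy dog 7 was compared with the other 6 healthy dogs as a description, with 1 dog on one side and no test. Of 3878 genes at 50 CPM or more in at least 1 healthy dog, 23 (0.593%) were at least 2-fold above the highest other healthy dog after adding 50 to each CPM value, and 10 of these 23 were in the interferon-stimulated list. On the same scale only 1 gene (0.0258%) was at least 2-fold below the lowest, GALNS, a lysosomal sulfatase, at 12.9 CPM against 126 to 195.

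RSAD2 was at 297 CPM in healthy dog 7, at 0 in 5 of the other healthy dogs and at 19.2 in healthy dog 3. In dogs with OS it was at 0, 14.0 and 104 (lowest, median and highest). DDX60, a helicase that aids the sensing of viral RNA, was at 726 in healthy dog 7, 13.6 to 112 in the other healthy dogs and 0 to 415 in dogs with OS. OAS1 was at 497 against 6.99 to 95.9 and 0 to 435, and ISG15 was at 720.2 against 0 to 175 and 0 to 438. EPSTI1 was at 413, ENSCAFG00000016252 at 159.8 and ACVR2A, an activin receptor, at 166, each above all 16 other dogs. For RSAD2, DDX60, OAS1 and ISG15, too, healthy dog 7 exceeded every other dog of either group. BCL2A1 differed in this, since 4 dogs with OS lay above healthy dog 7.

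The genes lowest in healthy dog 7 relative to the other healthy dogs, after GALNS, were HIVEP3 at 62.3 CPM, the transcription factor ETV6 at 244, MGAM at 193, RTN4 at 22.0, ENSCAFG00000030793 at 866, SLC7A11 at 963 and RAD51B at 79.3. Each was below the lowest other healthy dog, by less than 2-fold on that scale.

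The interferon-stimulated list of 28 genes, 23 of them in the annotation, summed to 6529.5 CPM in healthy dog 7, to 1482 to 2986 in the other healthy dogs and to 2130.3 to 4394 in dogs with OS. Only healthy dog 7 lay above the dogs with OS. ISG20 was the most abundant gene of the list, at 2206.5 of 4135 CPM in the pooled neutrophils. By dog ISG20 was at 2875 in healthy dog 7, 1119 to 2332 in the other healthy dogs and 1267 to 2508 in dogs with OS. The same signal showed in single cells thinned to 1000 UMIs. In healthy dog 7, 269 of 1258 neutrophils (21.4%) held 10 or more interferon-stimulated UMIs per 1000 and the median was 5. In the other healthy dogs the share was 0% to 5.81%, and in dogs with OS it was 0% to 13.2%, highest in OS dogs 2 and 9. Counted without thinning as 10 or more such UMIs in the whole cell, a measure that rises with depth, the share in healthy dog 7 was 43.3%. On that measure the other dogs' neutrophils were at 0% to 28.6%, and the CD4 T-like cells of healthy dog 7 were at 16.5%. ISG20 counted toward the shares by either measure. Pooled, it was at 106 CPM in CD4 T-like cells and 2206.5 in the neutrophils, and its part in the shares was not tested. In the CD4 T-like cells of healthy dog 7 the thinned share was 0.402%. The CD4 T-like cells of that dog held 33.3 CPM of OAS1 against 6.29 to 21.5 in the other healthy dogs, 30.9 of ISG15 against 4.59 to 25.9 and 23.3 of DDX60 against 0.51 to 8.12. Among healthy dogs OAS1, ISG15 and DDX60 were thus highest in healthy dog 7 in both cell types, at lower levels in the T-like cells. Other list genes went both ways in the T-like cells. HERC6 was highest in healthy dog 7, at 20.25 against at most 14.5. OAS3 and DDX58 were not, at 26.4 against up to 30.5 and 14.4 against up to 23.8. DDX58 was named after its values were seen.

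**Figure D5:**
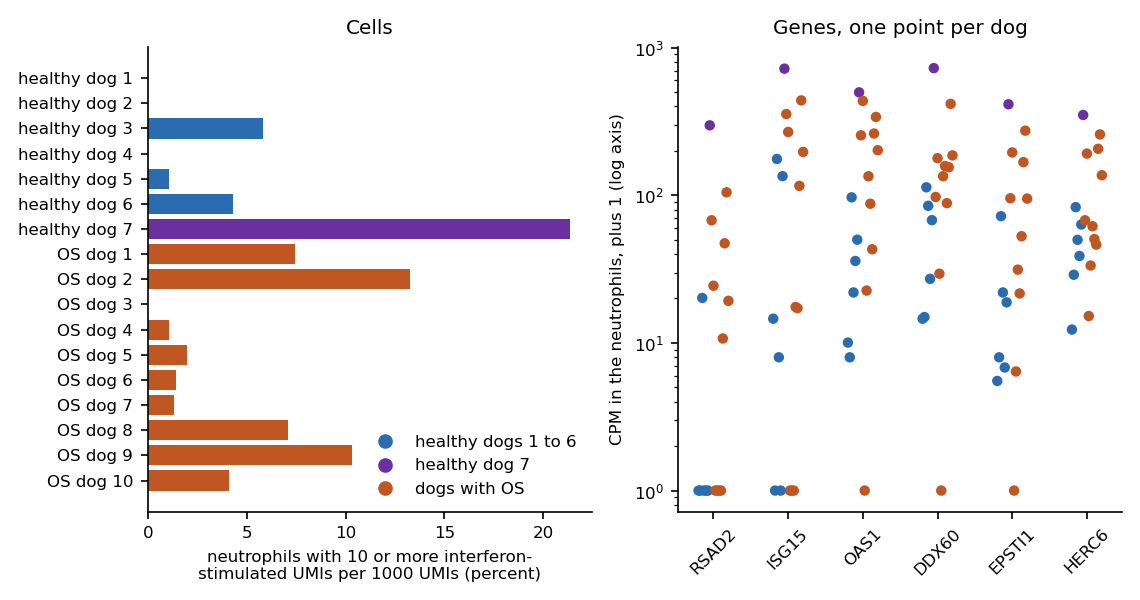
Left, share of each dog's neutrophils (percent) with 10 or more interferon-stimulated UMIs per 1000 after thinning. Right, level of RSAD2, ISG15, OAS1, DDX60, EPSTI1 and HERC6 in the neutrophils (CPM plus 1, log axis), 1 point per dog. Healthy dog 7 is at 21.4% on the left and is the highest point of each gene on the right, and OS dogs 2 and 9 follow on the left.

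Healthy dog 7 decided how OS compared with healthy for this list. With all dogs, 0 of 22 tested genes had an unadjusted p below 0.05 and the median log2 fold change was -0.04. Without healthy dog 7, IFIT1 and IFIT3 were no longer tested, and 10 of the other list genes had an unadjusted p below 0.05, all higher in OS. The list median was then 1.33. Of all genes, 3.4% had such a p in that direction, and no gene passed the adjustment. OAS1 had a log2 fold change of 0.61 ± 0.60 (SE, adjusted p = 1.00 in edgeR) with all dogs and 2.33 (adjusted p = 0.645) without healthy dog 7. RSAD2 turned from -1.01 to 2.83 and ISG15 from -0.19 to 1.45. DDX60, which is not in the list and was named for its level in healthy dog 7, turned from -0.23 to 1.54.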

How the data were processed

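Per the labels and the study's methods, the authors aligned reads to CanFam3.1 with Cell Ranger 7.0.0, against an Ensembl annotation filtered by gene biotype, and deposited UMI counts per gene and barcode for each of 17 dogs. The study's methods describe 1 run that counted intronic reads and 1 that did not. Which run the deposited counts come from is not given in the sources used here. The deposited counts were used as they are, and only barcodes within the stated limits were kept. Members, gene lists and comparisons were chosen with earlier results of these data known. Levels are UMIs per 1000000 (CPM) over a dog's summed cells. Shares and median UMIs were compared with exact two-sided Wilcoxon tests (scipy 1.17.1), and summed counts of genes with at least 10 counts with edgeR 4.0.16 (quasi-likelihood test, Benjamini-Hochberg adjustment), dogs being the replicates. Each dog gave 25 or more cells.

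Named genes were those of the rule, the most abundant of each list (up to 6, or 3 for lists of other cell types, at 50 CPM or more), the 5 genes with the smallest p since none was called, up to 8 per direction for healthy dog 7 and 5 per direction for each neighbouring set. Scrublet (scanpy 1.11.5), set to remove the expected rate of 0.8% per 1000 barcodes, marked 62 neutrophils (1.70%), which were kept. On counts drawn with known 3-fold changes for this comparison (9215 genes, 191 changed), the edgeR fit called 46.6% of the changed genes, 94.4% of the 71 with a mean of at least 20 counts, and 0 unchanged genes. The drawn change was the same in every dog with OS. Smaller changes, or changes in only some dogs, were not drawn, so these rates do not cover them. The numbers of the dogs (healthy 1 with OS 1 and so on) did not pair them. Alternatives covered each dog left out, DESeq2 1.42.0, other minimums for S100A12 and CD4, other denominators, thinning, doublets, shared barcodes and filters. Leaving out neutrophils above 5000 UMIs was chosen after seeing the data. Sequences were not used here, and a few of the named genes are not reported here.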

Additional observations from a re-analysis of the deposited data

Results flagged for a closer look

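Values far from the rest of their group were sought in 98 sets of one measure in one group, by the gap to the nearest dog as a share of the group's whole range (Dixon's ratio). Chance flags about 5% of such sets, and 22 values were found, 10 of them in healthy dog 7. The 2 numbers cannot be set against each other, because RSAD2, DDX60, OAS1, ISG15 and BCL2A1 were among the measures since they stood out in healthy dog 7, and the interferon-stimulated sum and cell share include RSAD2, OAS1 and ISG15.

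Healthy dog 7 was set apart by its share of neutrophils (26.6%, ratio 0.87), by the share of neutrophils rich in interferon-stimulated UMIs (21.4%, ratio 0.728), and by the summed interferon-stimulated list (ratio 0.702). It was also the highest healthy dog for RSAD2 (ratio 0.935), DDX60 (0.861), OAS1 (0.819), BCL2A1 (0.761), ISG15 (0.757) and TSC22D3, a glucocorticoid-induced regulator, at 108 CPM (0.597), and for AVIL at 1.66 (1.0). The AVIL value rests on 4 UMIs.

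OS dog 6 was the highest dog with OS for the granule list at 21720 CPM (ratio 0.802), for LYZ (0.806) and for the B-cell list at 1457 (0.558), beside its 17 of 72 neutrophils with more than 5000 UMIs. The part of other cells' RNA in these values was not tested. OS dog 8 had the highest share of neutrophils among dogs with OS (8.31%, ratio 0.629) and the highest ENSCAFG00000031806 of that group at 232 CPM (0.825), a gene that was at 18276 in healthy dog 5 (0.98). OS dog 9 led for KCNJ2 at 477 (0.482) and DDX60 at 415 (0.554). OS dog 3 led for IL1R2 at 3129 (0.566) and for AVIL at 28.4 (0.529), the latter from 2 UMIs, and OS dog 4 led for S100A12 at 29781 (0.496). Healthy dog 1 had the lowest healthy share of cells with 2 or more CD4 UMIs, 90.8% (0.636). S100A12 and CD4 counts also chose the cells, so their values are a description.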

How the results depend on the processing

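The difference in the share of neutrophils never passed the test. The direction of the medians turned in 1 alternative, the denominator of cells with no CD3E and no MS4A1 UMI (2.23 percentage points). Without healthy dog 7 the means also lay the other way, at 2.95% in healthy dogs and 3.27% in dogs with OS, and were not tested. Leaving out 1 dog at a time gave differences of the medians from -1.14 to -0.34. The difference in median UMIs per neutrophil stayed between 20.8 and 33.5 with 1 dog left out. Leaving out each dog in turn gave 0 called genes throughout, from 399 to 625 at an unadjusted p below 0.05, the 625 without healthy dog 3. With the replicate block over the 14 dogs whose numbers occur in both groups, the share differed by -3.73 percentage points in the mean (exact sign-flip test, p = 0.344), and 1 gene was called, DLA88, an MHC class I gene named after its values were seen (log2 fold change 1.64 and adjusted p = 0.585 in edgeR over all 17 dogs), where the same 14 dogs without the block gave 0. The numbers pair no dogs by design, and the correlations of the 7 number pairs ran from -0.23 to 0.11. The block also turned SGK1 (-0.032) and DDX60 (0.31). Of 28 named genes under 25 alternatives (21 for NECTIN1), 7 changed direction at least once. With 1 dog left out the log2 fold change ran from -1.39 to 2.83 for RSAD2, -0.55 to 1.54 for DDX60 and -0.49 to 1.45 for ISG15, each highest without healthy dog 7, and DESeq2 gave 2.64 for RSAD2. On the same basis LYZ ran from -0.33 without OS dog 6 to 0.57 and SLC7A11 from -0.71 to 0.026 without healthy dog 1, and ENSCAFG00000031806 was at 0.15 with neutrophils of at most 5000 UMIs. The fewer samples or cells are part of these alternatives, and further causes were not tested. Depth limits genes of few UMIs most: the sums held 70320 UMIs in OS dog 3, so 1 UMI there is worth more than in any other dog.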

Other observations

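FKBP5, an immunophilin gene that glucocorticoids induce, split the dogs with OS. It was at 2289.5 CPM in OS dog 3, 2058 in OS dog 9, 499 in OS dog 10 and 124 in OS dog 2, from 161, 535, 191 and 37 UMIs. The other 6 dogs with OS were at 3.71 to 48.6, inside or close to the range of the healthy dogs, 4.46 to 45.2. The log2 fold change was 4.31 ± 1.07 (SE, adjusted p = 0.572 in edgeR), and ran from 3.54 without OS dog 9 to 5.16 without healthy dog 7 with 1 dog left out. In the fit with the replicate block, which leaves out OS dogs 8, 9 and 10, it was 1.93 (adjusted p = 0.915). Other genes of the glucocorticoid-responsive list did not all follow these dogs. In OS dogs 3, 9 and 10, IL1R2 was at 3129, 1750.0 and 1397, against 372 to 1474 in healthy dogs. DUSP1, a phosphatase, was at 583, 500.0 and 478, against 199.9 to 516, and TSC22D3 was at 114, 104 and 78.3, against 32.9 to 108 in healthy dogs. TSC22D3 was higher in OS dog 2, at 181, and in OS dog 1, at 154, where FKBP5 was at 14.8. SGK1 was at 825, 1577 and 2319 in OS dogs 3, 9 and 10, against a healthy median of 1772, and ZFP36, which speeds mRNA decay, was at 455, 735 and 1052, the first below every healthy dog (513 to 998). Of 8 tested genes of the glucocorticoid-responsive list, 3 had an unadjusted p below 0.05, FKBP5, TSC22D3 and PER1, all higher in OS, and 0 were called, with a list median of 0.36. PER1 was named after its values were seen. The labels name no drug, and its part was not tested.

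The gene ENSCAFG00000030793, highest in the neutrophils beside the cells with more IL18 or DLA-DRA, varied widely between dogs, from 235 CPM in OS dog 6 and 866 in healthy dog 7 to 16289 in OS dog 9. It was not highest in the neutrophils beside the other sets. Pooled, it was at 2487 in the neutrophils, 6619 in the cells with CAMP, 4496 in those with no CD4 UMI and 2855.5 in those with 1. SLC7A11 was at 6872 in healthy dog 1 and 4468 in healthy dog 2, against 963 to 1890 in the other healthy dogs and 545 to 4046 in dogs with OS.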
